A study of Mus musculus with 6 samples.

Results

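The 30 genes described here are Ppara, which encodes a nuclear receptor for fatty acids, its coactivator gene Ppargc1a, and 28 genes of fatty acid oxidation in mitochondria and peroxisomes and of steps linked to it. They were taken as members of 1 pathway by a rule that uses no measured value, although earlier results of these data were known when the list was made. A gene was measured where at least 1 probe set of the array carried its symbol alone, and the probe set with the highest mean over the 6 arrays was taken. By this rule 29 of the 30 genes, with 53 probe sets, were measured among 18193 genes in all, and Acsl1 was not analysed here. The measured genes were 2 regulators (Ppara and Ppargc1a), 17 genes of mitochondrial proteins, 7 of peroxisomal proteins, 2 of proteins found in both organelles (Crat and Eci2) and the acyl-CoA synthetase Acsl5.

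Affymetrix mouse expression arrays had been hybridised with RNA from the proximal colon of 3 Hnf4α mutant mice and 3 control littermates, 1 array per mouse, all about 1 year old and given ketamine and xylazine before sacrifice. The mutants carried Hnf4α loxP-loxP alleles and a VilCre transgene, in which Villin sequences drive Cre in the intestinal epithelium, and the controls are labelled wildtype, with no other allele given. The RNA came from colon tissue and not from isolated epithelium, so that fewer cells of a type and less RNA per cell cannot be told apart. The question for these genes is whether colon that has lost Hnf4α, itself a nuclear receptor of gut and liver, held different amounts of the RNAs of fat oxidation.

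Values are log2 signals, so that a difference of 1 is a 2-fold change. Hnf4a itself was 10.17, 10.09 and 10.15 in mutant replicates 1, 2 and 3, against 12.23, 12.01 and 11.97 in control replicates 1, 2 and 3. Where its probe sets lie relative to the deleted part was not analysed here. The labels give mutant replicate 1 and the 3 controls as female, but 3 Y-linked genes lay between 5.35 and 8.12 in all 3 mutants, against 2.75 to 4.01 in the controls, and Xist between 5.03 and 5.32 in the mutants, against 9.94 to 10.96 in the controls. By RNA the mutants were therefore male and the controls female, and sex and genotype cannot be told apart in any comparison here. Mutant replicate 2 stood apart in smooth muscle markers (10 of 10 measured), whose summed signal was 11.15 there and 14.79 to 14.95 in the other mutants, against 15.15 to 15.26 in the controls. The 12 gut epithelium markers, all measured, had a summed log2 signal between 16.49 and 16.63 in the mutants and between 16.35 and 16.51 in the controls, and none passed an adjusted p of 0.05 by limma. At an unadjusted p of 0.05 by limma 4 were higher (Krt18, Krt19, Cdh17 and Cdh1) and 1 was lower (Krt20). Of 8 markers of proliferating cells 7 were measured and had summed log2 signals of 11.90 to 12.26 in the mutants, against 11.44 to 11.63 in the controls. With an adjusted p under 0.05 by limma 1 rose. At an unadjusted p of 0.05 by limma 6 of the 7 were higher and none was lower, and all mutants lay above all controls for each of the 7. Of 8 lymphocyte and plasma cell markers 7 were measured, with 9.73 to 12.10 in the mutants, against 12.68 to 13.25 in the controls. None passed the test. This sum was mostly that of Jchain, with means of 10.87 in the mutants and 12.96 in the controls. At an unadjusted p of 0.05 by limma 2 of the 7 markers were lower, Jchain and Cd79a (-0.83, with overlap), and none was higher. The median log2 fold change of the 7 markers was -0.22, and Cd3e (-0.06), Cd4 (-0.19) and Cd8a (0.01), named after their values were seen, overlapped. Endothelial markers, 8 of 8 measured, had summed log2 signals of 8.16 to 9.45 in the mutants, against 9.68 to 9.82 in the controls, with 2 lower at an unadjusted p of 0.05 by limma, and neutrophil markers, 5 of 7 measured, 6.997 to 7.22 in the mutants, against 6.72 to 6.95 in the controls, with 1 higher, none of them past the adjusted test. The part of these markers in the results was not tested. Over the whole array 239 of 45037 probe sets (0.531%) passed an adjusted p of 0.05 by limma.

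Fatty acids are burned in both organelles. Mitochondria take up long acyl chains through the carnitine shuttle, shorten them by rounds of dehydrogenation, hydration, dehydrogenation and thiolysis, and pass the electrons to the respiratory chain. Peroxisomes shorten very long and branched chains by a similar cycle whose first step makes hydrogen peroxide, which catalase breaks down. PPARA, bound to DNA with a retinoid X receptor at paired half-sites, is known to switch on genes of both routes in liver and other tissues, HNF4α binds half-sites of the same spacing, and colonocytes are known for oxidising fatty acids, above all butyrate made by bacteria.

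Of the 29 genes, only Ppara passed an adjusted p of 0.05 by limma, and it fell. Over all genes 0.396% fell and 0.484% rose at this threshold, 0.879% in both directions. With an unadjusted p up to 0.05 by limma, 6 of the 29 genes were lower in the mutants (Ppara, Ppargc1a, Cat, Acaa1b, Ehhadh and Eci2) and none was higher, beside 6.18% lower and 16.2% lower or higher over all genes (1124 lower and 1822 higher of 18193). Of the 29 log2 fold changes 15 were negative, beside 39.6% of all genes, and 4 (Ppara, Ppargc1a, Cat and Acaa1b) were -1 or less, beside 2.31%. By SAM, the test named in the methods of the study, 5 were lower and none higher, the same genes without Eci2, beside 5.77% lower and 9.78% higher over all genes. All 3 mutants lay below all 3 controls for 6 genes (Ppara, Ppargc1a, Cat, Acaa1b, Eci2 and Pex11a), beside 8.86% of all genes, and above them for none, beside 14.5%. None of the 17 mitochondrial genes reached an unadjusted p of 0.05 by limma or by SAM and none passed the adjusted test, while 3 of the 7 peroxisomal genes were lower by both tests and none was higher. Their difference as lists was not tested. The mitochondrial count rests on the probe set used and on all arrays. With the mean of all probe sets of a gene, Acaa2 was higher (unadjusted p = 0.0476 by limma) and Decr1 lower (unadjusted p = 0.0494 by limma). With 1 array left out, up to 3 of the 17 were higher with an unadjusted p up to 0.05 (Cpt1a, Acads and Acaa2, without mutant replicate 1) and at most 1 was lower (Slc25a20, without mutant replicate 3). Of the 7 peroxisomal genes 2 or 3 were then lower, Cat and Acaa1b each time, and none higher.

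**Figure D1:**
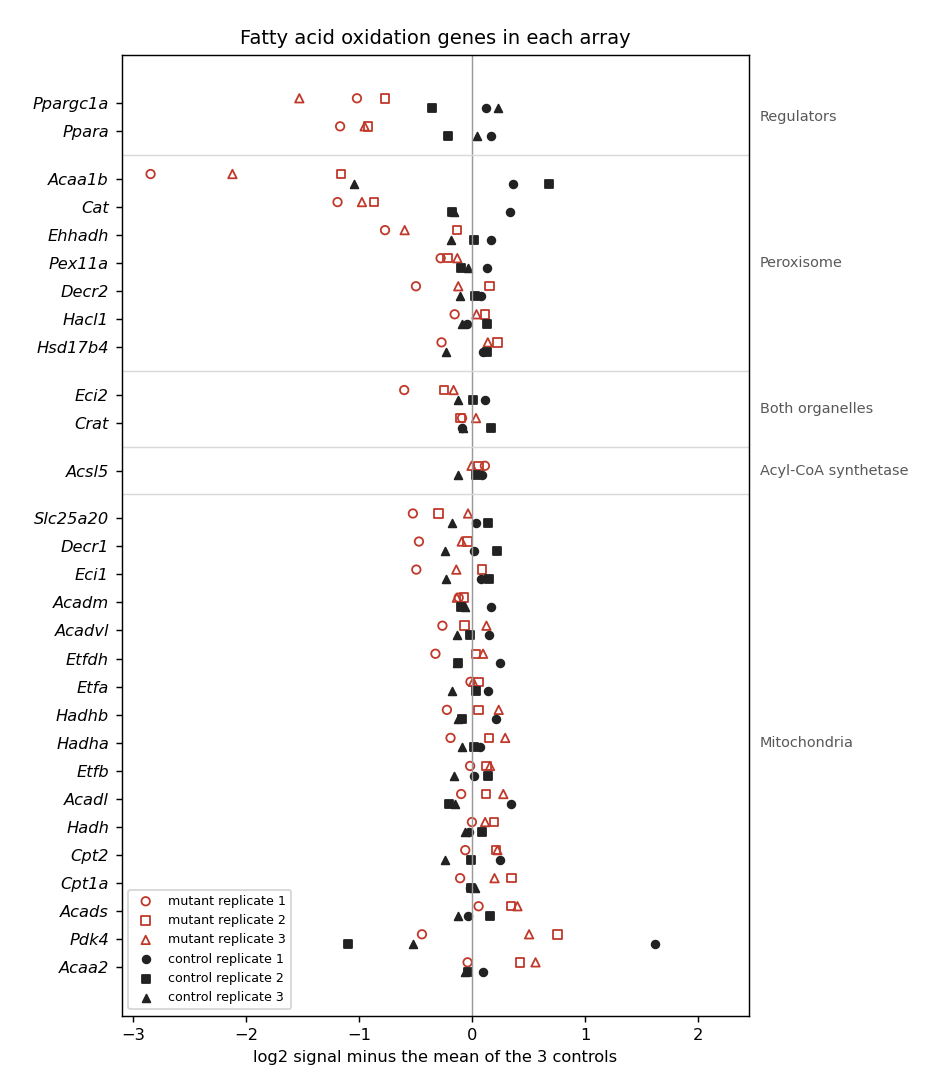
Log2 signal of the 29 measured genes in each array minus the mean of the 3 controls (horizontal axis), with 1 row per gene, open red symbols for mutants and filled black symbols for controls. Ppargc1a, Ppara, Acaa1b and Cat have all mutants left of all controls, while the mutants and controls of every mitochondrial gene overlap.

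Ppara was 7.67, 7.92 and 7.89 in mutant replicates 1, 2 and 3, against 9.01, 8.62 and 8.88 in control replicates 1, 2 and 3. The highest mutant lay well under the lowest control. The log2 fold change was -1.01 (standard error 0.13, 95% interval -1.33 to -0.70, adjusted p = 0.0368 by limma), or 2.02-fold lower, and the gene had rank 112 of 18193 by p. The other probe sets of Ppara gave -0.95 and -0.76, again with no overlap between the groups, so that all 3 probe sets were lower. With 1 array left out the log2 fold change stayed between -1.12 and -0.93, but Ppara kept an adjusted p under 0.05 only without control replicate 2 (0.0318). The adjusted p was between 0.0818 and 0.159 without any of the other 5 arrays.

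Ppargc1a encodes PGC-1α, a coactivator that raises mitochondrial number and fat oxidation together with PPARA and other receptors. Its signal was 6.70, 6.95 and 6.19 in mutant replicates 1, 2 and 3, against 7.84, 7.36 and 7.94 in control replicates 1, 2 and 3. The difference was as wide as that of Ppara but the mutants and the controls each spread further (mutant SD 0.39, control SD 0.31, n = 3 each), and the log2 fold change of -1.11 (standard error 0.23) had an adjusted p of 0.123 by limma. All 5 probe sets of Ppargc1a were lower, with log2 fold changes between -1.17 and -0.68, and in each of them the 3 mutants lay below the 3 controls. Arrays weighted by their quality, an alternative that gave control replicate 2 the lowest weight (0.456), gave -1.35 with an adjusted p of 0.0366.

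**Figure D2:**
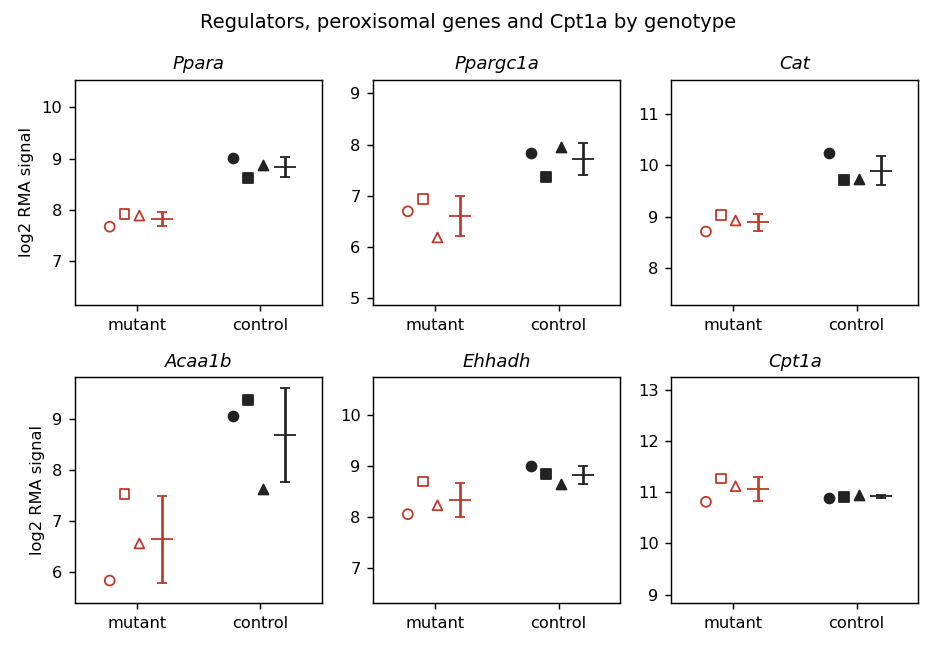
Log2 signal (vertical axis, each panel spanning the same range of log2 units) of Ppara, Ppargc1a, Cat, Acaa1b, Ehhadh and Cpt1a in the 3 mutants (open red) and the 3 controls (filled black), with mean and SD beside them (n = 3). The groups are separate for Ppara, Ppargc1a, Cat and Acaa1b, and they overlap for Ehhadh and for Cpt1a, the second at 10.81 to 11.26 in the mutants and 10.89 to 10.94 in the controls.

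The promoters of Ppara, which fell, and of Cat and Acaa1b, the peroxisomal genes with the widest differences, are shown because PPARA and HNF4α both bind DNA at half-sites of the form AGGTCA. They are from RefSeq (GRCm38.p6), 250 bases before to 50 bases after the start of the gene, read 5′ to 3′ on the strand of the gene, with any AGGTCA or its complement in capitals. The shared promoter of Hadha and Hadhb is given for comparison, since both genes had nearly equal signals in the 2 genotypes.
Ppara (chr15:85735526-85735825, plus strand): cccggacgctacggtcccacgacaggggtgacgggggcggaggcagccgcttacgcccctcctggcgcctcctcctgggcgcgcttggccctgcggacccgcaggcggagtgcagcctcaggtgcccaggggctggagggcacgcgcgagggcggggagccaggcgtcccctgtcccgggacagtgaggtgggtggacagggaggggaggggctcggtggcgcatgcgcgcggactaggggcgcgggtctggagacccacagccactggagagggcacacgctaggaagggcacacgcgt
Cat (chr2:103485104-103485403, minus strand): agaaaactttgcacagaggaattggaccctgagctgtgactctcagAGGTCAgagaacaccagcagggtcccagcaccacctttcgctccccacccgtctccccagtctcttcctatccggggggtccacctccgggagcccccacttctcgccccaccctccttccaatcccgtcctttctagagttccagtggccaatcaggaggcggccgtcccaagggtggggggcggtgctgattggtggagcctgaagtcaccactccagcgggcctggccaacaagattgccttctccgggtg
Acaa1b (chr9:119157044-119157343, minus strand): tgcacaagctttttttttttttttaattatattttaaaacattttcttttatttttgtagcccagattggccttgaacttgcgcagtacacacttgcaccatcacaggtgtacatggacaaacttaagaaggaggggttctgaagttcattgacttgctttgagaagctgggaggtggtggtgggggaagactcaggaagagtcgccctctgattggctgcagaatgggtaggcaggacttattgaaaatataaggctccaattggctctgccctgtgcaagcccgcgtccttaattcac
Hadha (chr5:30154931-30155230, minus strand): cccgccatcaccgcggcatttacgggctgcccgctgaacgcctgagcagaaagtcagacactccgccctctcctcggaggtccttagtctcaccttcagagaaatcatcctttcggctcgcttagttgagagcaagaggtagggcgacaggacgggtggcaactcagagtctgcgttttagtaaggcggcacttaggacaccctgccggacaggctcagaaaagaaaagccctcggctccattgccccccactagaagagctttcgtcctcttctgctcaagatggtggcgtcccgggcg

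Windows were found for 26 of the 30 genes, 27 windows in all, and AGGTCA on either strand was present in those of Cat, Acadm, Acadvl and Cpt1a, that is in 4 of 27 windows, beside 16.3% of all 32851 windows. In Cat it began at position -204 from the start. A pair of AGGNCA half-sites in the same direction with 1 base between them was in none of the 27 windows (0.381% of all) and CAAAGTCC, a core of HNF4-type sites, in none either (1.42% of all). Both strands were searched, and the single half-site can be a part of the pair. These matches describe letters in short windows, and more distant sites were not searched. The ratio of observed to expected CpG was 0.284 in Acaa1b, 0.282 in Ppargc1a, 0.389 in Cat, 0.515 in Ehhadh, 0.526 in Eci2 and 0.736 in Ppara, beside medians of 0.507 over 6 windows of peroxisomal genes, 0.691 over 15 windows of mitochondrial genes and 0.384 over all windows. The Hadha and Hadhb windows shared 228 bases, because the genes start 273 bases apart on opposite strands.

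Catalase was the peroxisomal gene with the smallest p. Cat was 8.71, 9.03 and 8.92 in mutant replicates 1, 2 and 3, against 10.23, 9.72 and 9.74 in control replicates 1, 2 and 3. All mutants lay below all controls by at least the width of the mutant group. The log2 fold change was -1.01 (standard error 0.17, 95% interval -1.41 to -0.61), or 2.01-fold lower, with an adjusted p of 0.0695 by limma. A second probe set gave -1.06, also without overlap. Leaving out 1 array moved the value between -1.10 and -0.84, and with array weights Cat had -1.04 and an adjusted p of 0.0348.

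Acaa1b encodes a peroxisomal thiolase, the enzyme that releases acetyl-CoA at the end of each round. It had the widest difference of all 29 genes and also one of the widest spreads. Its signal was 5.84, 7.53 and 6.57 in mutant replicates 1, 2 and 3, against 9.05, 9.37 and 7.64 in control replicates 1, 2 and 3. Mutant replicate 2 and control replicate 3 were close to each other, and the groups were separate only by that margin. The log2 fold change of -2.04 (standard error 0.56, 95% interval -3.36 to -0.72, 4.11-fold lower) had an adjusted p of 0.215 by limma, and it lay between -2.56 and -1.64 with 1 array left out. A pair of probe sets that carry the symbols of Acaa1b and its near copy Acaa1a together, and were not used for either gene, gave much smaller values, -0.33 and -0.30. In both of them all mutants lay below all controls. Acaa1a, given here as the near copy, had a log2 fold change of 0.02 (adjusted p = 0.960 by limma). Its groups overlapped in the probe set used for it, which carries its symbol alone. How far the Acaa1b probe set also binds RNA of the near copy was not examined.

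Ehhadh encodes the bifunctional enzyme of the middle steps in peroxisomes and is a known PPARA target of the liver. It was 8.06, 8.70 and 8.23 in mutant replicates 1, 2 and 3, against 8.996, 8.84 and 8.65 in control replicates 1, 2 and 3, so that mutant replicate 2 lay within the range of the controls and the groups overlapped. The log2 fold change was -0.50 (adjusted p = 0.335 by limma, standard error 0.18), and with 1 array left out it lay between -0.68 and -0.36.

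Pex11a, whose product helps peroxisomes to divide, was 8.62, 8.68 and 8.77 in mutant replicates 1, 2 and 3, against 9.03, 8.79 and 8.86 in control replicates 1, 2 and 3. The log2 fold change of -0.21 (adjusted p = 0.445 by limma, standard error 0.10) left the mutants below the controls by a small margin in the probe set used, while a second probe set gave -0.21 with overlap. The remaining peroxisomal genes showed no such separation. Decr2, a dienoyl-CoA reductase, had a log2 fold change of -0.15, Hsd17b4, the second bifunctional enzyme of peroxisomes, 0.03, and Hacl1, which cleaves branched 2-hydroxy acids, 0.00. Over the 7 peroxisomal genes 5 log2 fold changes were negative and 2 positive, and the median was -0.21, beside 0.05 over all genes.

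Eci2, an enoyl-CoA isomerase of peroxisomes and mitochondria, was 8.61, 8.96 and 9.04 in mutant replicates 1, 2 and 3, against 9.32, 9.22 and 9.08 in control replicates 1, 2 and 3. Mutant replicate 3 and control replicate 3 differed little, and the log2 fold change was -0.34 (adjusted p = 0.382 by limma, standard error 0.14). It was -0.21 without mutant replicate 1 and -0.42 without mutant replicate 3. Crat, which moves short acyl groups between CoA and carnitine, had -0.05 with overlapping groups.

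**Figure D3:**
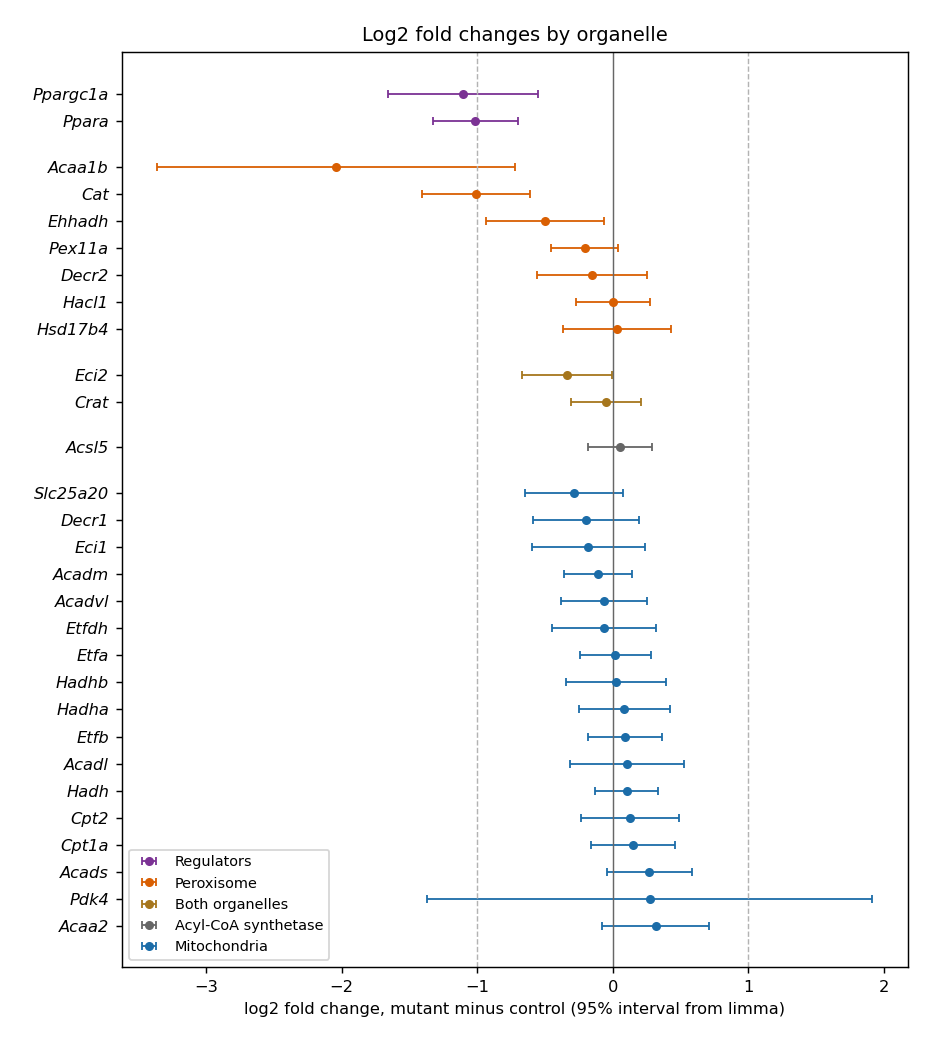
Log2 fold change, mutant minus control, of each of the 29 genes (points) with its 95% interval by limma (bars, n = 3 per genotype), coloured by organelle, with dashed lines at a 2-fold change in either direction. The intervals of Ppargc1a, Ppara, Acaa1b, Cat, Ehhadh and Eci2 lie below 0, and those of 16 of the 17 mitochondrial genes lie within the dashed lines.

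The mitochondrial genes stayed close together. Their 17 log2 fold changes ran from -0.28 to 0.32 with a median of 0.09, 6 negative and 11 positive, and mutants and controls overlapped for each gene in the probe set used. For 16 of the 17 genes, all but Pdk4, the 95% interval of the log2 fold change lay within a 2-fold change in either direction, as it did for 88.1% of all genes. For 12 it lay within a 1.5-fold change, as it did for 12209 of all 18193 genes, a share near that of the 17. A fall as wide as 2-fold thus lay outside the interval of these 16 genes.

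The carnitine shuttle opened the mitochondrial route. Cpt1a, whose product joins long acyl chains to carnitine and is the main point of control, was 10.81, 11.26 and 11.11 in mutant replicates 1, 2 and 3, against 10.89, 10.91 and 10.94 in control replicates 1, 2 and 3. One mutant lay below and the others above the narrow range of the controls, and the log2 fold change was 0.15 (adjusted p = 0.648 by limma, standard error 0.13), with 0.05 without mutant replicate 2 and 0.27 without mutant replicate 1. Slc25a20, the carrier across the inner membrane, had the lowest value of the group. It was 10.97, 11.19 and 11.45 in mutant replicates 1, 2 and 3, against 11.52, 11.63 and 11.31 in control replicates 1, 2 and 3, a log2 fold change of -0.28 (adjusted p = 0.469 by limma, standard error 0.15), which was -0.16 without mutant replicate 1 and -0.41 without mutant replicate 3. Cpt2, which returns the acyl chain to CoA in the matrix, had 0.13, and Acsl5, which activates fatty acids before the shuttle, 0.06.

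Of the acyl-CoA dehydrogenases of the first step, those for very long (Acadvl, -0.07), long (Acadl, 0.10) and medium chains (Acadm, -0.11) had log2 fold changes near 0. Acads, the enzyme for short chains such as butyrate, was 10.91, 11.20 and 11.26 in mutant replicates 1, 2 and 3, against 10.82, 11.01 and 10.73 in control replicates 1, 2 and 3. The mutants were higher on average by 0.27 (adjusted p = 0.439 by limma, standard error 0.13), with overlap between mutant replicate 1 and control replicate 2. Electron transfer flavoprotein takes the electrons of this step to the respiratory chain, and its subunits Etfa (0.02) and Etfb (0.09) and its oxidoreductase Etfdh (-0.06) were alike in showing no separation of the genotypes.

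The later steps were as even. Hadha and Hadhb, subunits of the trifunctional protein that share the promoter region shown above, had log2 fold changes of 0.09 and 0.02, and in both the order of the arrays was the same among the mutants, lowest in replicate 1 and highest in replicate 3. Hadh, the dehydrogenase for short chains, had 0.10. Acaa2, the mitochondrial thiolase, had the highest log2 fold change of the 29 genes. It was 10.87, 11.33 and 11.47 in mutant replicates 1, 2 and 3, against 11.01, 10.87 and 10.85 in control replicates 1, 2 and 3, a log2 fold change of 0.32 (adjusted p = 0.460 by limma, standard error 0.16). Its 3 probe sets gave between 0.32 and 0.50, and in one of the other two the mutants lay above the controls. The others had unadjusted p of 0.0435 and 0.0369 by limma. With 1 array left out the value lay between 0.19, without mutant replicate 3, and 0.49, without mutant replicate 1. The mitochondrial thiolase thus stood on the other side of 0 from the peroxisomal thiolase Acaa1b, although neither passed the test. The near copy Acaa1a was at 0.02 in the probe set used for it, while the probe sets that carry both symbols were at -0.33 and -0.30. The auxiliary enzymes for unsaturated chains, Eci1 and Decr1, had -0.18 and -0.20, and a second probe set of Decr1 gave -0.32 with all mutants below all controls (unadjusted p = 0.0355 by limma).

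Pdk4 encodes a kinase that shuts off pyruvate dehydrogenase when fat is burned and is a known PPARA target. Its signal varied more among the controls than that of any other member. It was 7.83, 9.03 and 8.78 in mutant replicates 1, 2 and 3, against 9.89, 7.17 and 7.75 in control replicates 1, 2 and 3. Control replicate 1 was the highest array and control replicate 2 the lowest, so that the mutants lay between them, and the log2 fold change of 0.27 had a standard error of 0.69. It became 1.08 without control replicate 1 and -0.28 without control replicate 2, and these arrays give no direction for Pdk4.

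The arrays of one genotype kept much the same order over the mitochondrial genes. Among the mutants, replicate 1 was lowest for 16 of the 17 genes, and among the controls replicate 3 was lowest for 13. The median of the 17 genes, set against the control mean, was -0.12, 0.13 and 0.16 in mutant replicates 1, 2 and 3, against 0.09, -0.01 and -0.13 in control replicates 1, 2 and 3. For the 7 peroxisomal genes the median was -0.50, -0.13 and -0.13 in the mutants, against 0.14, 0.03 and -0.16 in the controls, in the same order of replicates. Markers of mature colonocytes (8 of 8 measured) moved with this order in part. Their median was -0.77, -0.11 and 0.05 in mutant replicates 1, 2 and 3, against 0.11, 0.02 and -0.11 in control replicates 1, 2 and 3, and their summed log2 signal was lowest in the same arrays of each genotype, 15.42 in mutant replicate 1 and 15.49 in control replicate 3. Of these markers Car4 (-2.71, adjusted p = 0.00977 by limma) and Tmigd1 (-1.82, adjusted p = 0.0256 by limma) fell. The median log2 fold change of the 8 was only -0.13. Slc9a3 (-1.05, adjusted p = 0.318 by limma) also had all mutants below all controls. With an unadjusted p up to 0.05 by limma, 3 of the 8 were lower and none was higher. Slc26a3 (-0.07), Aqp8 (-0.01), Car1 (0.15), Guca2a (0.15) and Ms4a18 (-0.19) overlapped. These and Slc9a3 were named after their values were seen. Control replicate 3 was the lowest control for Aqp8 (8.32) but the highest for Car4 (12.29), so that the order was not that of each marker. The part of these markers in the signals of the mitochondrial and peroxisomal genes was not tested. The median log2 fold change of the 17 genes lay between 0.00 and 0.15 with any 1 array left out, and that of the peroxisomal genes between -0.31 and -0.14.

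Fat cells, which also burn and store fatty acids, could lie on the outer colon. Of 10 adipocyte markers 8 were measured, and their summed log2 signal was 11.37, 10.66 and 10.89 in mutant replicates 1, 2 and 3, against 12.11, 11.94 and 11.28 in control replicates 1, 2 and 3. Those of smallest p were Fabp4, the fatty acid binding protein of fat cells, with a log2 fold change of -1.13 (adjusted p = 0.173 by limma) and all mutants below all controls, and the lipase gene Lipe, with -0.58 (adjusted p = 0.342 by limma) and overlap. Cidec, a lipid droplet gene, had -1.11 with overlap. Of the markers that define fat cells, adiponectin (Adipoq) lay between 8.21 and 9.29 in the mutants and between 8.41 and 9.68 in the controls, and Ucp1, the marker of brown fat, lay between 4.50 and 4.78 in the mutants and between 4.29 and 4.53 in the controls. None of the 8 markers passed the adjusted test, and 2, Fabp4 and Lipe, were lower with an unadjusted p up to 0.05. Cidec, Adipoq and Ucp1 were named after their values were seen. Smooth muscle and matrix markers were lowest in mutant replicate 2, and without it Ppara (-1.06), Ppargc1a (-1.27), Cat (-1.08), Acaa1b (-2.48) and Ehhadh (-0.68) were farther below 0 than with it. The part of adipocyte, smooth muscle and matrix RNA in these values was not tested.

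**Figure D4:**
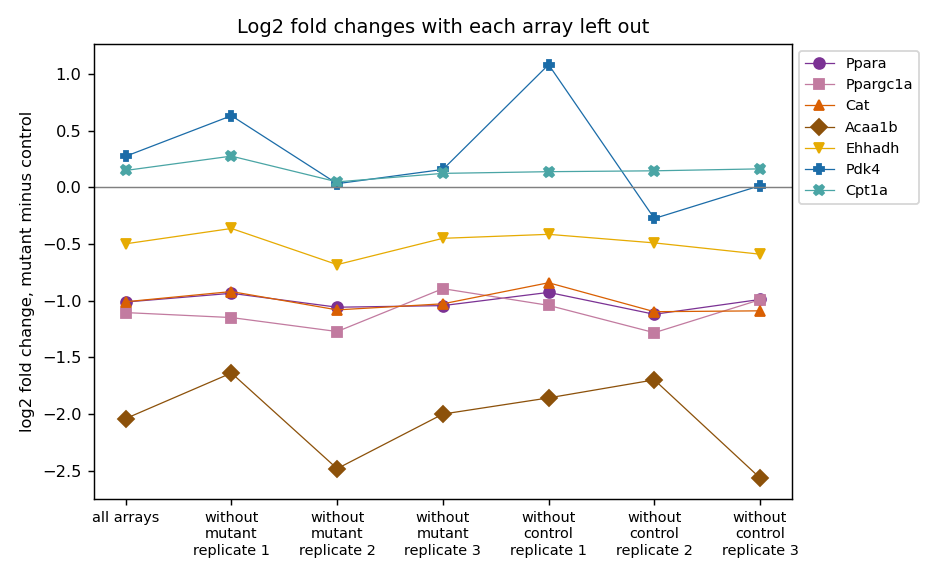
Log2 fold change, mutant minus control (vertical axis), of 7 genes with all arrays and with each array left out in turn (horizontal axis). Ppara, Ppargc1a, Cat, Acaa1b and Ehhadh stay below 0 in each case, while Pdk4 moves between -0.28 and 1.08.

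Genes around the pathway were read from lists of 136 genes, of which 124 were measured. None passed an adjusted p of 0.05 by limma, beside 0.879% of all genes. With an unadjusted p up to 0.05, 9 were lower and 10 higher by limma, and 7 were lower and 10 higher by SAM. Over all 18193 genes 1124 were lower and 1822 higher by limma, and 1049 lower and 1779 higher by SAM, so that the shares in the lists were near those of all genes. Among 11 other genes listed as targets of PPARA the median log2 fold change was -0.31, with 8 negative and 3 positive, and 2 were lower with an unadjusted p up to 0.05. Whether each of them is a target in colon was not tested. Vnn1, a pantetheinase that frees pantothenate from the breakdown of CoA, was 6.78, 7.14 and 7.10 in mutant replicates 1, 2 and 3, against 8.64, 7.46 and 8.20 in control replicates 1, 2 and 3 (log2 fold change -1.09, adjusted p = 0.198 by limma, standard error 0.29). The mutants were below the controls here too, as they were for the transcription factor gene Klf15 (-0.56, adjusted p = 0.255 by limma). The receptors and cofactors did not share this. Over 9 such genes the median was 0.04, none reached an unadjusted p of 0.05, and Pparg, the receptor of fat cells and colonocytes, had 0.26 (adjusted p = 0.385 by limma, standard error 0.11), while Ppargc1b, the sister gene of Ppargc1a, had 0.21.

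The 10 genes of fatty acid uptake and of malonyl-CoA, which bring fatty acids to oxidation or hold them back, were mixed, with 3 log2 fold changes below 0 and 7 above, a median of 0.15, and 3 lower and 2 higher with an unadjusted p up to 0.05. The 3 below 0 were wide. Fabp2, the intestinal fatty acid binding protein, was 9.74, 11.31 and 10.65 in mutant replicates 1, 2 and 3, against 13.60, 12.94 and 12.58 in control replicates 1, 2 and 3, a log2 fold change of -2.47 (adjusted p = 0.0730 by limma, standard error 0.42). The fatty acid transporter and acyl-CoA synthetase Slc27a2 and the scavenger receptor Cd36, named after their values were seen, had -2.55 and -1.17, with all mutants below all controls. Slc27a2 was 4.72, 5.52 and 5.38 in mutant replicates 1, 2 and 3, against 8.75, 8.74 and 5.77 in control replicates 1, 2 and 3, so that control replicate 3 was nearly as low as the mutants. Acacb went the other way. It encodes the carboxylase of the mitochondrial surface whose product, malonyl-CoA, inhibits CPT1. It lay between 7.80 and 8.23 in the mutants and between 7.38 and 7.46 in the controls, a difference of 0.58 (adjusted p = 0.139 by limma, standard error 0.13). The transporter gene Slc27a4 (0.76, adjusted p = 0.353 by limma) and the acyl-CoA synthetase gene Acsl3 (0.55, adjusted p = 0.531 by limma), also named after their values were seen, were higher on average with overlap.

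Other peroxisomal genes were mixed. Of 18 measured, 9 lay below and 9 above 0 on the log2 scale, and the median was 0.00. Phyh, which starts the breakdown of the branched phytanic acid, was 9.58, 9.82 and 9.81 in mutant replicates 1, 2 and 3, against 10.71, 10.40 and 10.33 in control replicates 1, 2 and 3. Its mutants were clearly below its controls, with a log2 fold change of -0.74 (adjusted p = 0.0878 by limma, standard error 0.13). Abcd4, a transporter of the ABCD family, had 0.38 (adjusted p = 0.257 by limma) with all mutants above all controls. Among 12 measured genes of peroxisome assembly the median was 0.03, and Pex26, which anchors import factors in the peroxisomal membrane, had 0.36 (adjusted p = 0.275 by limma), while Pex13 had -0.27 (adjusted p = 0.488 by limma).

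Other mitochondrial genes also had small differences. The median log2 fold change was 0.19 over 17 other genes of beta-oxidation and acyl-CoA breakdown, 0.11 over 15 genes of the tricarboxylic acid cycle and 0.10 over 18 genes of the respiratory chain. The genes of smallest p were Acad9 (0.36), a dehydrogenase that also helps to build complex I, and Hibch (0.30), of valine breakdown, in the first list, Idh3a (0.22) and Dlst (0.21), subunits of dehydrogenases of the cycle, in the second, and Cyc1 (0.23) and Uqcrc1 (0.19), subunits of complex III, in the third, and none passed the adjusted test. No gene of the cycle or the respiratory chain reached an unadjusted p of 0.05 by limma or by SAM. For all 15 and all 18 of them the 95% interval of the log2 fold change lay within a 1.5-fold change, beside 12209 of all 18193 genes. In the list of pyruvate dehydrogenase, its kinases and its phosphatases, Pdk2, a kinase related to Pdk4, was 8.26, 8.71 and 8.65 in mutant replicates 1, 2 and 3, against 9.08, 9.17 and 8.93 in control replicates 1, 2 and 3 (log2 fold change -0.52, adjusted p = 0.230 by limma, standard error 0.15). Pdp2, a phosphatase that acts against the kinases, had 0.38 (adjusted p = 0.281 by limma), with all mutants above all controls. Of the genes of ketone bodies 4 were measured, with a median of -0.05. Oxct1, which lets tissues use ketone bodies, had -0.36 (adjusted p = 0.371 by limma, standard error 0.14) and Bdh1, which turns acetoacetate into 3-hydroxybutyrate and back, had 0.42 (adjusted p = 0.402 by limma, standard error 0.19).

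**Figure D5:**
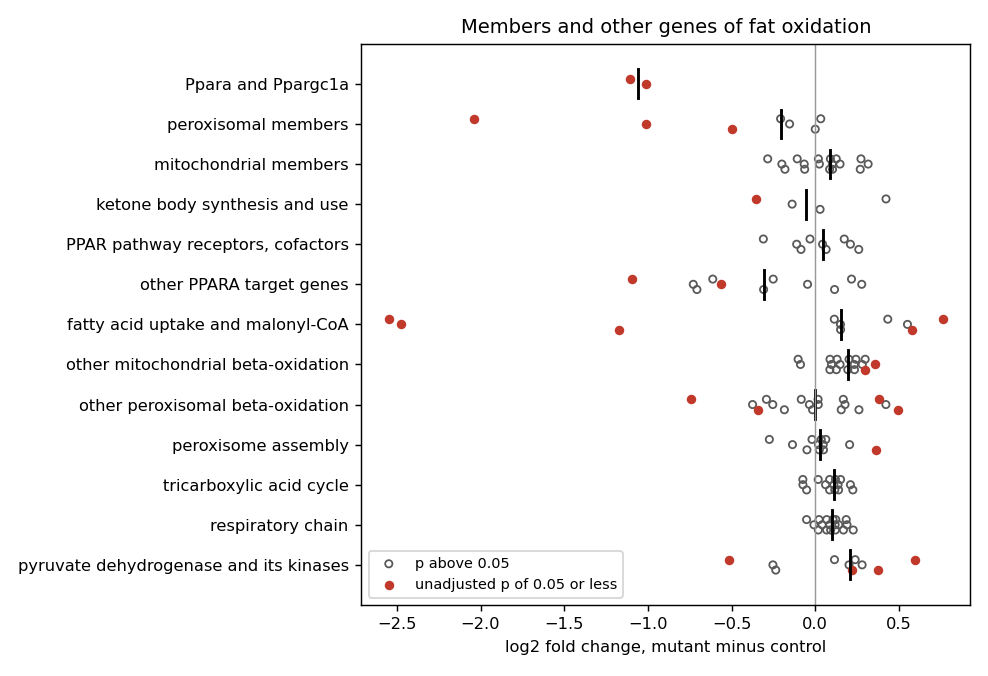
Log2 fold change, mutant minus control (horizontal axis), of each gene in 3 groups of members and in the other lists, with filled red points for an unadjusted p up to 0.05 by limma and a black bar at the median of each list. Red points of the mitochondrial members and of the tricarboxylic acid cycle and respiratory chain are absent, and the points farthest left are Slc27a2 at -2.55, Fabp2 at -2.47 and Acaa1b at -2.04.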

How the data were processed

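RNA from the colon of 3 mutant and 3 control mice had been hybridised to 1 Affymetrix mouse expression array each. The authors deposited log2 signals made by RMA, which corrects background, equalises the distributions of the arrays and summarises the probes of a probe set. Genotype and replicate number were taken from the sample titles. No columns of other samples were present.

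Control probe sets (64 of 45101) were removed, and the remaining 45037 entered 1 fit with limma 3.58.1 in R 4.3.3 (mutant minus control, eBayes, no covariate), and p-values were adjusted over all of them by the Benjamini-Hochberg method. Of these probe sets 34945 carried 1 gene symbol in the platform annotation, 932 several and 9160 none, and only the first were used for genes. Deposited signals are compressed at low levels and saturate at high ones, which narrows fold changes, and levels of different probe sets were not compared. Precision is limited by 3 mice per genotype, with which an exact two-sided permutation p cannot be under 0.1. Replicates are separate mice. The limma and SAM calculations were tested on simulated data.

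The genes and lists were chosen with earlier results of these data known. Values in every array are given for members with an adjusted p under 0.05, the 10 members of smallest p, the 3 highest and the 3 lowest log2 fold changes, and Ppara, Ppargc1a and Cpt1a. Genes of the surrounding lists are named where they were among the 2 of smallest p in their list, markers where they passed the test or were among those of smallest p, and the exceptions are stated. A summed log2 signal of markers is the log2 of the sum of their linear signals. Alternatives covered normalization, dim probe sets, the variance model, array weights, a replicate block, SAM, thresholds, the choice of probe set and leaving out each array.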

Additional observations from a re-analysis of the deposited data

How the results depend on the processing

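The 5 log2 fold changes of Ppara, Ppargc1a, Cat, Acaa1b and Ehhadh kept a negative sign under every alternative tried, while that of Pdk4 was 0.27 with all arrays, reversed to -0.28 without control replicate 2 and reached 1.08 without control replicate 1. No mitochondrial member was called under any of the 18 alternatives. The medians of the mitochondrial and peroxisomal members moved by less than the spread between arrays in all 14 alternatives that gave them.

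The 239 probe sets called became 599 with array weights, 62 with the replicate block, 5543 by SAM without adjustment and 0 by SAM with adjustment, 5853 by limma without adjustment and 679 when a ratio of 2 was also required, and between 39 and 336 with 1 array left out. The 1 member called became 3 with array weights, 0 with the replicate block, 5 and 0 by SAM without and with adjustment, 6 by limma without adjustment, 4 with the ratio, and between 0 and 1 with 1 array left out. Called peroxisomal members, 0 in the main test, were 1 with array weights, 3 by SAM and 3 by limma without adjustment, and 2 with the ratio. Called genes of the surrounding lists, 0 in the main test, were 1 with array weights and 1 with the mean of all probe sets (Fabp2 in both), 17 by SAM and 19 by limma without adjustment, 4 with the ratio, and between 0 and 1 with 1 array left out (Vnn1 without control replicate 2, Slc27a2 without control replicate 3).

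Whether the replicate numbers pair the mice is not known. Deviations from the group means correlated at -0.02, 0.25 and -0.15 for same-numbered arrays, and between -0.29 and 0.38 for the others. With so few arrays these values cannot decide whether mice were paired. Under the replicate block Ppara had an adjusted p of 0.105 by limma. The number of arrays limits the precision. Of 15 members with several probe sets, 11 had log2 fold changes of 1 sign, and Crat, Etfdh, Hadhb and Hsd17b4 had both signs.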
